A study of Homo sapiens with 8 samples.

Results

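The respiratory chain was examined as the set of its subunit genes, taken from the deposited gene table by symbol: complex I (NDUFA, NDUFB, NDUFC, NDUFS, NDUFV and MT-ND), complex II (SDHA to SDHD), complex III (UQCR, CYC1 and MT-CYB), complex IV (COX4 to COX8 and MT-CO) and ATP synthase, complex V (ATP5 and MT-ATP). The symbol pattern matched 104 of 20263 rows, 13 encoded in the mitochondrial genome and 91 in the nucleus. Of these, 96 are subunit genes. The other 8 rows are the pseudogene ATP5EP2, the retrocopies ATP5L2 and UQCRHL, the read-through loci ATP5J2-PTCD1 and NDUFC2-KCTD14, ATP5S and ATP5SL, which carry the ATP5 name but are not subunits, and a second row named SDHD (ENSG00000255292) that overlaps the SDHD gene (ENSG00000204370). The table uses the older ATP5 symbols, which are kept here.

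The RNA came from MHCC-97H cells, an established line of human hepatocellular carcinoma, collected after 24 hours of treatment. In 4 libraries the cells had received the solvent DMSO, and in 1 library each they had received 40, 60, 80 or 100 µM lenvatinib, a multikinase inhibitor that acts on VEGF and FGF receptors. All groups are of the same unmodified line, and each dose stands on 1 library. Library totals lay between 30077668 and 37384578 counts except at 60 µM, where the total was 10181973. The labels do not state that the 4 DMSO libraries were grown as separate cultures. The p-values below therefore rest wholly or in part on the spread among these libraries, and that spread may be technical. In the comparisons of arms, the 4 doses form 1 arm, so differences between doses also count as spread. The same holds for an SD of the lenvatinib arm. The epithelial keratins KRT8 and KRT18 were abundant (1241566 and 790730 reads over the 8 libraries). The hepatocyte regulator HNF4A had 1352 reads, not scaled to library totals. By library these were 241, 350, 286 and 277 in DMSO, and 80, 8, 48 and 62 in the order of the doses. The liver products ALB and AFP had 6 and 2 reads, all in the 60 µM library. The leukocyte marker PTPRC had 0 reads, the endothelial marker PECAM1 had 4, the epithelial marker EPCAM 125 and the fibroblast collagen COL1A1 7853. In bulk RNA, fewer cells of a type and less RNA per cell cannot be told apart.

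The respiratory chain passes electrons from NADH (complex I) and succinate (complex II) through ubiquinone to complex III, cytochrome c and complex IV, where oxygen is reduced. Complexes I, III and IV pump protons across the inner mitochondrial membrane, and ATP synthase uses the gradient to make ATP. Complexes I, III, IV and V join subunits from both genomes, while complex II is encoded wholly in the nucleus. Mitochondrial mRNAs are cut out of long transcripts that span nearly the whole circle, so their levels depend on processing and stability as well as on transcription.

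Some mitochondrial messages share bases, which bears on how their counts can be read. MT-ATP8 and MT-ATP6 lie on one bicistronic mRNA, and so do MT-ND4L and MT-ND4. The ends of the upstream genes are shown for that reason, in the GRCh38 reference (GENCODE v29 transcripts, plus strand), with the bases shared with the downstream gene in capitals. The MT-ATP8 stretch is the last 70 bases of the gene, chrM:8503-8572, of which 46 are shared with MT-ATP6. The MT-ND4L stretch is the last 40 bases, chrM:10727-10766, of which 7 are shared with MT-ND4.
MT-ATP8: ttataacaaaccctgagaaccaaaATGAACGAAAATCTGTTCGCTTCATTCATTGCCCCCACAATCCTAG
MT-ND4L: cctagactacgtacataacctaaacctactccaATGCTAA
Reads in the shared stretches, and reads shared with nuclear copies of mitochondrial DNA, cannot be assigned with certainty, and the rule that the authors' counting applied to them is not given in the sources used here. SDHA and its pseudogenes, and UQCRH and its retrocopy UQCRHL, are uncertain in the same way. Strandedness is not given either, so MT-ND6, the single protein gene on the other strand, cannot be told apart from antisense RNA of its neighbours.

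Of the 104 rows, 95 passed the filter of a mean of at least 1 CPM (counts scaled to the library total) over the 8 libraries: all 13 mitochondrial and 82 nuclear rows. The 9 rows under the filter included the second SDHD row with 50 reads in all libraries together, COX6B2 with 13 and ATP5EP2 with 7. The others were ATP5L2 with 5, COX6A2 and COX7A1 with 3 each, and COX4I2, COX7B2 and COX8C with 0. A count of 0 allows up to 3 counts per library (0.08025 to 0.2946 CPM by library total, counting error only). All the COX rows under the filter are the paralogs known from muscle, lung or testis. Their paralogs above the filter were COX4I1, COX6A1, COX6B1, COX7A2, COX7A2L, COX7B and COX8A. Per length, in the authors' deposited TPM (the same scaling per length of transcript), COX8A had the highest mean level of these in DMSO, 1082 TPM, followed by COX6A1 at 858, COX4I1 at 799 and COX6B1 at 476. COX7A2 stood at 161 TPM, COX7B at 126 and COX7A2L at 78.1.

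The summed level of each complex did not separate the arms. The sums are on the TPM scale, computed from counts and the length of the principal transcript, and the NDUFA4 protein, which is a complex IV subunit in spite of its symbol, is counted with complex I as its symbol has it. Complex II had the lowest sum: 1033, 1294, 1354 and 1155 in DMSO 1 to 4, and 832, 442, 983 and 1052 at 40, 60, 80 and 100 µM. The 100 µM library lay inside the DMSO range and the other lenvatinib libraries below it, for a log2 ratio of means of -0.55 (lenvatinib against DMSO; -0.50 in the deposited TPM). The nuclear subunits of complex IV had a log2 ratio of 0.24, those of complex I 0.15, those of complex III 0.14 and those of complex V -0.07. The mitochondrial subunits of complex I had a log2 ratio of -0.33, those of complex IV -0.22, MT-CYB of complex III 0.10 and those of complex V 0.18. The arms overlapped in every one of these sums.

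**Figure D1:**
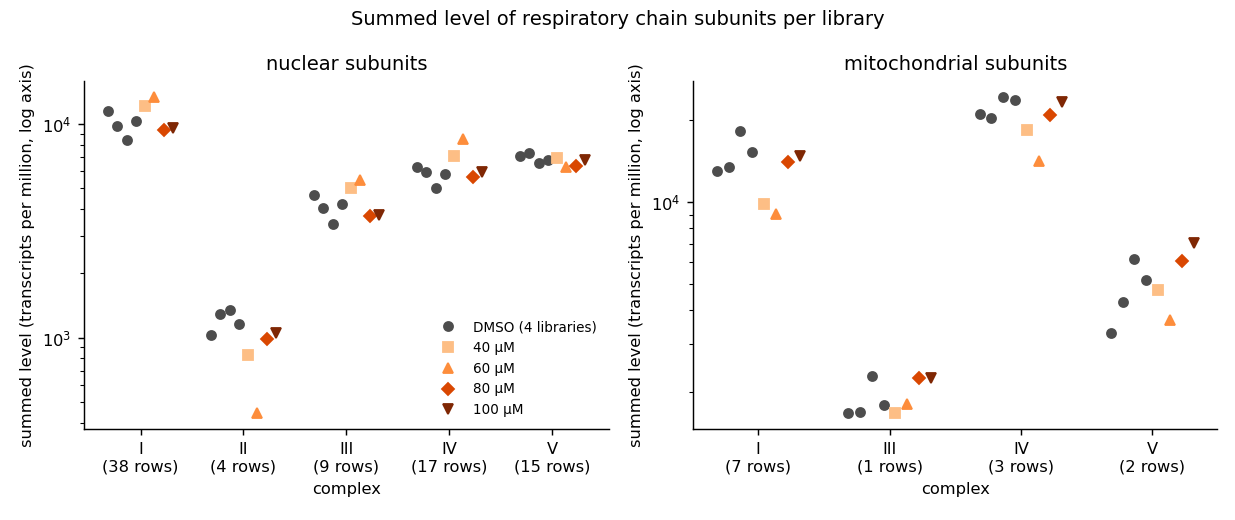
Summed level of the subunit rows of each complex in each library (TPM scale, log axis), nuclear subunits on the left and mitochondrial subunits on the right; circles are the 4 DMSO libraries and the other symbols the 1 library at each dose. The symbols of the arms overlap in every column, and the 60 µM library lies lowest in complex II, at 442.

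The 2 genomes contributed about equal shares of the counts. The 13 mitochondrial genes took 1.85, 1.73, 2.05 and 2.05% of all counts in DMSO 1 to 4 and 1.65, 1.35, 1.89 and 2.09% at 40, 60, 80 and 100 µM, a mean of 1.92% ± 0.16 against 1.75% ± 0.32 (SD, n = 4 each). The 91 nuclear rows took 1.83, 1.63, 1.35 and 1.68% in DMSO and 1.89, 1.92, 1.43 and 1.496% with lenvatinib. The ratio of mitochondrial to nuclear counts was 1.01, 1.06, 1.52 and 1.22 in DMSO and 0.87, 0.70, 1.32 and 1.40 with lenvatinib. The 40 and 60 µM libraries were below all DMSO libraries in that ratio and the 80 and 100 µM libraries inside their range, so the arms overlapped.

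Within the mitochondrial counts, 4 of the 13 genes took a larger share in every lenvatinib library than in any DMSO library: MT-CO1, MT-CO3, MT-CYB and MT-ATP8. Among all 11827 tested genes, 4.22% had reads relative to the summed mitochondrial reads that were higher in every lenvatinib library than in every DMSO library. These shares are parts of a fixed whole and are given as a description. MT-CO1, the catalytic core of complex IV, took 22.4, 22.7, 23.6 and 23.2% of the mitochondrial counts in DMSO and 25.7, 25.0, 27.6 and 26.9% at 40, 60, 80 and 100 µM. MT-CO3, a second core subunit, took 10.5, 10.8, 10.3 and 9.90% in DMSO and 12.9, 12.1, 11.7 and 12.0% with lenvatinib. MT-CYB, cytochrome b of complex III, took 5.70, 5.67, 5.89 and 5.34% in DMSO and 6.47, 8.64, 6.70 and 6.15% with lenvatinib. In MT-CO1 the 80 and 100 µM libraries were highest, in MT-CO3 the 40 µM library and in MT-CYB the 60 µM library. MT-ATP8, a small subunit of the proton channel part of ATP synthase, took 1.17, 1.89, 2.16 and 2.12% in DMSO and 2.50, 2.45, 2.34 and 2.52% with lenvatinib, and DMSO 1 was low.

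MT-CO2, which carries the copper site that takes electrons from cytochrome c, took 24.2, 21.7, 18.1 and 23.2% in DMSO and 20.3, 18.8, 14.6 and 16.1% with lenvatinib. DMSO 3 lay below the 40 and 60 µM libraries, so the arms overlapped. For each MT-CO1 read there were 1.08, 0.96, 0.76 and 1.00 MT-CO2 reads in DMSO and 0.79, 0.75, 0.53 and 0.60 with lenvatinib. MT-ND6, whose gene lies on the other strand, had 0.270, 0.305, 0.270 and 0.296 reads per MT-ND5 read in DMSO and 0.355, 0.429, 0.318 and 0.349 with lenvatinib, which did not overlap. As strandedness is not given, its reads may include RNA of the opposite strand. In the other 6 ratios computed between mitochondrial genes the arms overlapped, and the share of other gene pairs without overlap was not computed. No mitochondrial gene differed between the arms in CPM without overlap.

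The other mitochondrial genes overlapped between the arms. MT-ND4, a proton pumping subunit of complex I, took 8.50, 10.5, 12.8 and 8.81% of the mitochondrial counts in DMSO and 7.13, 5.15, 10.5 and 10.5% with lenvatinib. Its partner MT-ND4L took 1.22, 1.56, 2.20 and 1.36% in DMSO and 0.98, 0.85, 1.62 and 1.51% with lenvatinib, and MT-ND5, a further pumping subunit, took 2.71, 3.05, 4.196 and 2.85% and 2.11, 2.07, 3.56 and 3.40%. In all of these DMSO 3 was highest and the 60 µM library lowest, with 80 and 100 µM inside the DMSO range. MT-ND1, which forms part of the quinone pocket, ran the other way: 7.53, 6.39, 5.74 and 7.39% in DMSO and 7.92, 9.89, 6.06 and 5.76% with lenvatinib, highest at 60 µM and lowest in DMSO 3. MT-ND2 took 9.40, 10.1, 9.85 and 9.88% in DMSO and 8.45, 8.29, 9.94 and 9.60% with lenvatinib, and MT-ATP6, the proton channel subunit of ATP synthase, took 2.87, 2.39, 2.38 and 2.21% and 2.76, 2.40, 3.02 and 3.29%. The 100 µM library was highest in MT-ATP6 and the 60 µM library lowest in MT-ND2. In CPM, MT-ND6 had a log2 fold change of 0.15, with 158, 138, 176 and 176 CPM in DMSO and 159, 197, 167 and 195 with lenvatinib.

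**Figure D2:**
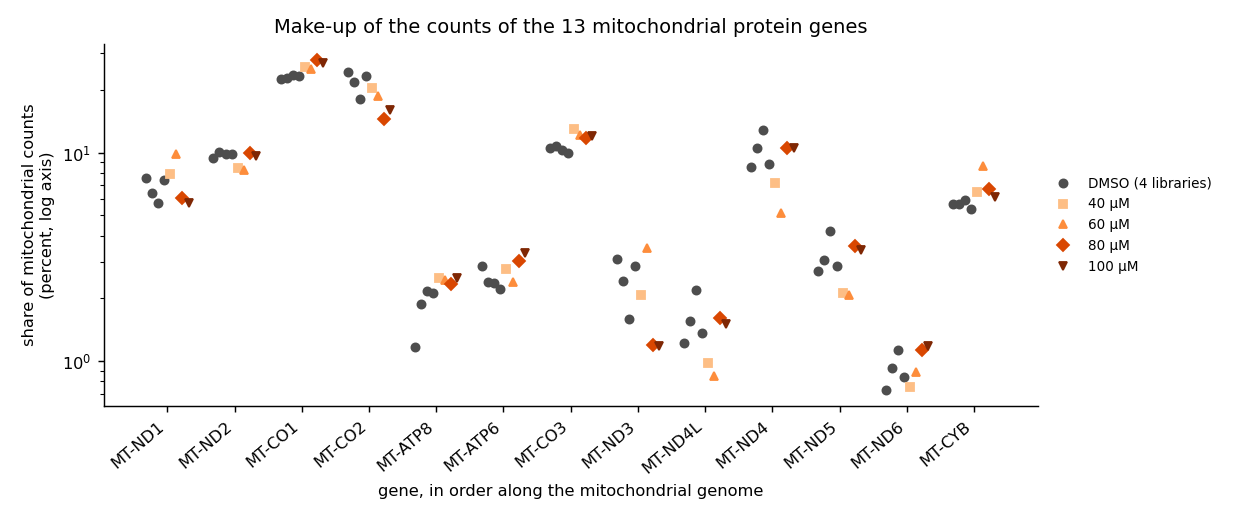
Share of each of the 13 protein genes in the counts of the mitochondrial genome (percent, log axis), in order along the genome, for each library; circles are DMSO and the other symbols the 4 doses. MT-CO1, MT-CO3, MT-CYB and MT-ATP8 show all lenvatinib symbols above all circles, and MT-ND3 and MT-CO2 are lowest at 80 and 100 µM.

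In the comparison of the 4 lenvatinib with the 4 DMSO libraries, edgeR's quasi-likelihood test called no respiratory chain gene. It called 0 of 11827 genes in all, a background of 0%, with 523 genes and no member at an unadjusted p under 0.05. DESeq2 called 94 genes and no member. Of the 82 nuclear members, 58 had a positive log2 fold change (70.7%, against 43.8% of all tested genes), with a median of 0.22 against -0.11 over all tested genes. The 13 mitochondrial members had a median of 0.15. Only UQCRC2 and ATP5F1, 2.11% of the tested members, did not overlap between the arms in CPM, against 6.46% of all tested genes. UQCRC2, a core protein of complex III, stood at 172, 181, 171 and 175 CPM in DMSO and 162, 48.6, 133 and 136 with lenvatinib. ATP5F1, subunit b of the peripheral stalk of ATP synthase, stood at 293, 319, 294 and 317 CPM in DMSO and 240, 61.3, 212 and 239 with lenvatinib. Both were lowest at 60 µM, and both had an adjusted p of 0.874.

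The members with the highest and lowest log2 fold changes in each complex are described next, and none of them was called. Among the nuclear rows counted with complex I by symbol, the ends were NDUFA4L2 at 1.17 and NDUFA5 at -1.03. NDUFA4L2 is a low-level paralog of NDUFA4, itself a complex IV subunit. It had 1.85, 3.20, 0.74 and 2.53 CPM in DMSO and 2.44, 10.6, 3.68 and 2.29 with lenvatinib. The next highest row was NDUFB11 at 1.02. NDUFA5, a peripheral arm subunit with the lowest GC content of the nuclear members (35.0%), had 3.15, 13.2, 28.2 and 4.91 CPM in DMSO and 3.04, 4.02, 7.94 and 9.06 with lenvatinib. The DMSO libraries alone thus spanned the whole range of NDUFA5 apart from the 40 µM value.

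In complex III the highest was CYC1, the cytochrome that passes electrons to cytochrome c, at 0.68: 1100, 531, 294 and 788 CPM in DMSO and 1221, 2307, 407 and 399 with lenvatinib. UQCRFS1, the Rieske iron-sulfur protein, was among the lowest at -0.28, with 168, 147, 109 and 164 CPM in DMSO and 164, 121, 94.6 and 104 with lenvatinib. In both, the 80 and 100 µM libraries were below DMSO 1, 2 and 4. In complex IV the highest after COX8A (0.94) was COX5B at 0.82, a nuclear subunit on the matrix side, with 661, 427, 265 and 538 CPM in DMSO and 950, 1729, 315 and 347 with lenvatinib. The lowest of complex IV were COX7B at -0.12 and COX4I1 at 0.07. COX4I1, the common isoform of subunit 4, had 486, 286, 191 and 373 CPM in DMSO and 496, 438, 208 and 262 with lenvatinib. COX7A2L, known for its part in supercomplexes of complexes III and IV, had 84.2, 38.3, 68.7 and 54.3 CPM in DMSO and 165, 57.8, 70.6 and 79.6 with lenvatinib, highest at 40 µM.

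In ATP synthase the highest were ATP5D at 0.94 and ATP5G2 at 0.70, and the lowest ATP5F1 at -0.70 and ATP5C1 at -0.58. ATP5D, subunit delta of the central stalk, had 559, 251, 125 and 349 CPM in DMSO and 659, 1442, 180 and 185 with lenvatinib. ATP5C1, subunit gamma of the same stalk, had 79.2, 108, 103 and 98.4 CPM in DMSO and 67.3, 26.1, 79.8 and 86.4 with lenvatinib. ATP5D was highest and ATP5C1 lowest at 60 µM, and both overlapped. Subunit c of the rotating ring is made from ATP5G1, ATP5G2 and ATP5G3, which encode the same mature protein. Their log2 fold changes were 0.42, 0.70 and 0.27, and in deposited TPM their DMSO means were 569, 745 and 107. ATP5B, the catalytic beta subunit and the most abundant nuclear member of the complex at 1638 TPM, had a log2 fold change of -0.05.

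The spread inside the DMSO arm was as wide as the difference between arms for many nuclear subunits, and it followed GC content, the share of G and C bases in the transcript. The first principal component of the 8 libraries held 84.5% of the variance, and the libraries' positions on it followed the slope of their log2 levels on GC content (absolute Pearson r = 0.997 over the 8 libraries, which share the genes). NDUFB11, a complex I membrane arm subunit with 60.0% GC, stood at 434, 239, 135 and 347 CPM in DMSO and 589, 1352, 203 and 203 with lenvatinib. NDUFS1, the large iron-sulfur subunit of complex I with 42.1% GC, stood at 56.0, 80.6, 95.3 and 71.0 CPM in DMSO and 39.0, 7.40, 69.1 and 70.2 with lenvatinib. The order of the libraries was nearly reversed between these 2 subunits of 1 complex, and their arms overlapped. Of the 21 nuclear members with at least 55% GC, 18 were highest at 60 µM and 19 lowest in DMSO 3. The 29 with under 45% GC did not show the reverse: 11 were highest and 11 lowest at 60 µM, and 5 were highest and 11 lowest in DMSO 3. Their median log2 fold change at 60 µM was 0.01, against -3.39 for all tested genes under 45% GC. Across the 82 nuclear members, the correlation of log2 fold change with GC content was 0.58 in the comparison of arms (0.61 over the 11823 genes with a GC value). The mitochondrial genes span 39.6 to 47.7% GC.

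Each dose set against DMSO gave no member called at 40, 80 or 100 µM, where no gene at all was called (1019, 336 and 261 genes at an unadjusted p under 0.05). These fits take the variation of a dose's single library to be that seen among the DMSO libraries. At 60 µM, 37.2% of all genes were called and 9 members, or 9.47% of those tested. Of these 9, NDUFB11, COX5B, COX8A and UQCR11 rose, with 53.0 to 60.0% GC, and NDUFS1, SDHD, ATP5F1, ATP5C1 and UQCRC2 fell, with 41.0 to 45.5% GC. The rise in NDUFB11 was 2.23 ± 0.59 on the log2 scale (SE, edgeR adjusted p 0.0387), and NDUFS1 fell by 3.35 ± 0.48 (edgeR adjusted p 0.026). With the GC slopes of the libraries added to this fit as a covariate, a choice made after seeing the data, NDUFB11, COX5B and COX8A turned to -0.50, -0.25 and -0.70. Each dose has its own term there, so the 4 DMSO libraries alone set the effect of the covariate. Their slopes ran from -0.99 to 0.28, which does not reach the slope of 1.82 at 60 µM, so the values with the covariate are extrapolated. That fit called 53 of the 95 members, 50 of them lower, and 34.7% of all genes. Without DMSO 2 or without DMSO 4, no gene and no member was called at 60 µM. Without DMSO 1 there were 30 members and 56.5% of all genes, and without DMSO 3 there were 29 members and 52.4%. Beside these values, the 60 µM library had the lowest total and the steepest GC slope, 1.82 log2 units per 10 percentage points, and their part in the result was not tested. The median log2 fold change of the nuclear members was 0.57, 0.61, -0.42 and -0.37 at 40, 60, 80 and 100 µM, and that of the mitochondrial members 0.10, 0.28, -0.12 and -0.03. Over all tested genes these medians were -0.09, -0.74, -0.05 and -0.05. The doses share their DMSO libraries. The test of a slope over the 4 doses called 0% of genes and 0 members, with 875 genes and 2 members at an unadjusted p under 0.05.

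**Figure D3:**
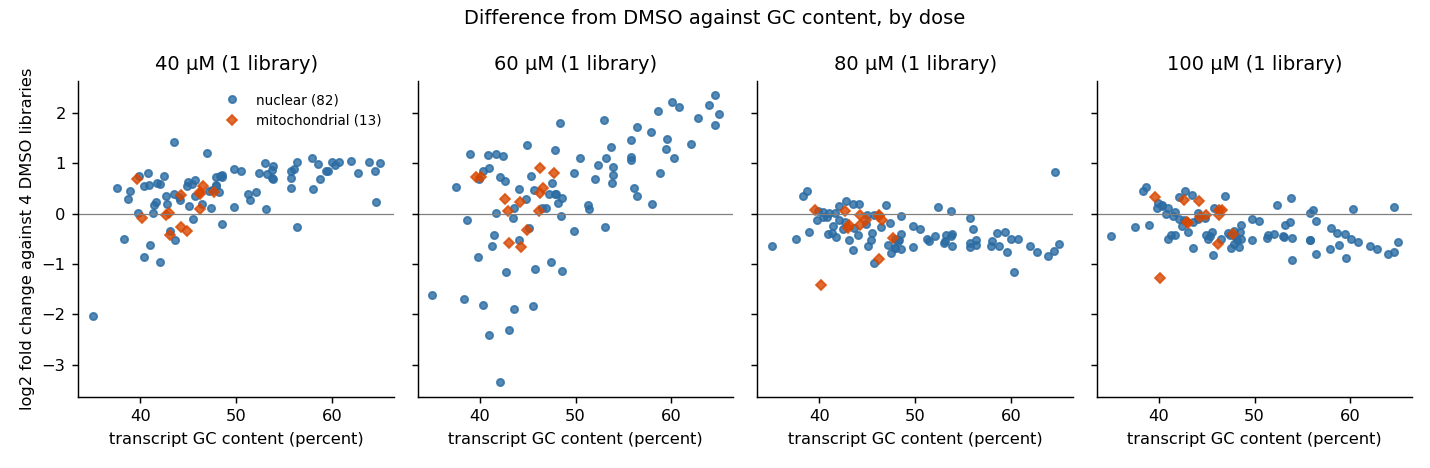
Log2 fold change of each tested member against DMSO, plotted over the GC content of its transcript, with 1 panel for each dose; circles are the 82 nuclear and diamonds the 13 mitochondrial members. At 60 µM the GC-rich nuclear members lie high (median 1.48 for the 21 with at least 55% GC) and at 80 and 100 µM 20 and 17 of these 21 lie below 0 (medians -0.61 and -0.52).

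SDHD and COX8A, called in opposite directions at 60 µM, were chosen for that difference after their values were seen, to show their promoters beside their transcripts. The promoters share the letters of 1 of the motifs searched. NRF1 and GABPA are transcription factors known for binding at the promoters of many respiratory chain genes. RefSeq promoters (GRCh38.p14, 250 bases before to 50 after the start) were found for 68 of the 91 nuclear rows. The letters GCATGCGC, taken for NRF1, occurred on either strand in 14 of the 68 (20.6%) and in 3.68% of the promoters of 27305 genes. The letters CCGGAAGT, taken for GABPA, occurred in 11 (16.2%) and in 4.95% of all. The median GC content was 61% in the 68 promoters and 58.3% over all, which include genes not tested here. The part of GC content in these shares was not tested. Both windows lie on the plus strand, SDHD at chr11:112086623-112086922 and COX8A at chr11:63974370-63974669, and capitals mark matches on either strand. In SDHD the NRF1 letters match on both strands and overlap each other, giving 1 run, and the second run is the GABPA letters on the minus strand, which also form the single run in COX8A.
SDHD: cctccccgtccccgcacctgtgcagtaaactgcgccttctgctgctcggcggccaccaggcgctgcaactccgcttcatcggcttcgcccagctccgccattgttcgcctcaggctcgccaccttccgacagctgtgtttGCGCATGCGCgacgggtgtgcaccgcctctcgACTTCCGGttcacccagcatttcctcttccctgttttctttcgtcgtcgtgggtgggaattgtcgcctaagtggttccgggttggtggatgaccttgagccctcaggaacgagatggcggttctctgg
COX8A: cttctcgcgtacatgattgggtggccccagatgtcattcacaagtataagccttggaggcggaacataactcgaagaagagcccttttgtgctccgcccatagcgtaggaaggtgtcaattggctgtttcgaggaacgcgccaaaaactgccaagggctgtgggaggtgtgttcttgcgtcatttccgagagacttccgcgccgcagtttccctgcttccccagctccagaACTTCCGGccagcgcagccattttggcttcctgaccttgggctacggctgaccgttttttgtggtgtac
Both promoters are GC-rich (62.3 and 55%), while the transcripts differ, with 41.0% GC in SDHD and 58.6% in COX8A. SDHD, a membrane anchor of complex II, stood at 19.8, 30.5, 38.4 and 23.8 CPM in DMSO and 18.4, 5.31, 28.3 and 30.3 with lenvatinib. COX8A, a small subunit of complex IV, stood at 509, 258, 153 and 351 CPM in DMSO and 633, 1314, 242 and 244 with lenvatinib. At 60 µM SDHD was the lowest and COX8A the highest of the 8 libraries, and in DMSO 3 the reverse held.

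When each library's GC slope was added to the comparison of arms as a covariate, 3.26% of all genes were called (386, of which 175 were higher and 211 lower with lenvatinib) and 1 of 95 members, MT-ND3. The slope is computed from the same counts, so this fit describes what is left beside the trend. MT-ND3, a small subunit of the membrane arm of complex I (ENSG00000198840, chrM:10059-10404), stood at 668.5, 359, 248 and 599 CPM in DMSO and 442, 772, 177 and 194 at 40, 60, 80 and 100 µM. The 80 and 100 µM libraries were below all DMSO libraries and the 60 µM library above them, so the arms overlapped. With the covariate, MT-ND3 fell by 1.02 ± 0.14 on the log2 scale (SE, edgeR adjusted p 0.0155). Without the covariate its log2 fold change was -0.24 ± 0.55. Over 14 alternatives of the fit with the covariate it ran from -1.08 to -0.88, with adjusted p from 4.82e-04 to 0.141, and was called in 10. It was not called without DMSO 1, without DMSO 4, without the 80 µM or without the 100 µM library.

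With the covariate the nuclear members had a median log2 fold change of -0.17, with 63 of 82 negative (76.8%, against 57.2% of all tested genes), and none was called. The mitochondrial members had a median of -0.14 and all tested genes one of -0.06. Of 39 nuclear rows of complex I, 30 were negative, with a median of -0.19, and of 18 nuclear rows of complex V, 15 were negative, with a median of -0.21. In complex III 6 of 10 nuclear rows were negative (median -0.18) and in complex IV 8 of 11 (median -0.10). All 4 tested rows of complex II were negative. SDHA, the flavoprotein that oxidises succinate, stood at 1172, 972, 789 and 1081 CPM in DMSO and 1097, 791, 635 and 694 with lenvatinib, and its log2 fold change was -0.46 ± 0.18 (SE, edgeR adjusted p 0.205). SDHB, the iron-sulfur subunit, stood at 178, 150, 126 and 171 CPM in DMSO and 135, 71.2, 96.4 and 110 with lenvatinib, and its log2 fold change was -0.58 ± 0.22 (SE, edgeR adjusted p 0.185). In SDHB the 60, 80 and 100 µM libraries were below all DMSO libraries and in SDHA the 80 and 100 µM libraries, with the others inside the DMSO range. The values of SDHC and SDHD were -0.04 and -0.05. The smallest adjusted p of a nuclear member was 0.0828, for ATP5E, subunit epsilon of ATP synthase, with 102, 137, 164 and 99.9 CPM in DMSO and 154, 115, 171 and 181 with lenvatinib (log2 fold change 0.51 ± 0.14).

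**Figure D4:**
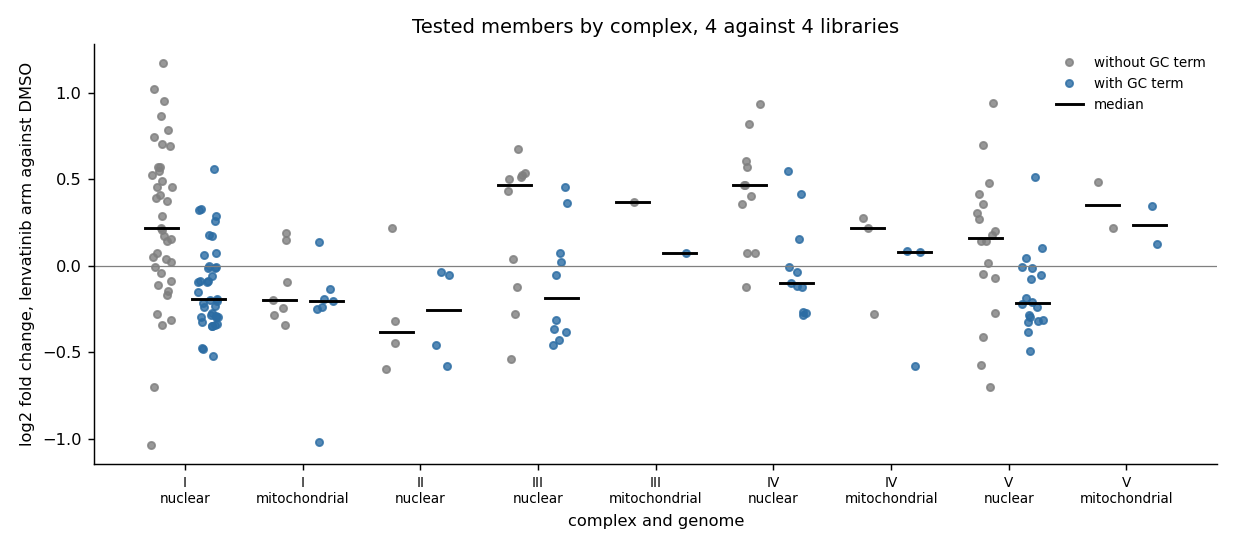
Log2 fold change of lenvatinib against DMSO for the tested members by complex and genome, without (grey) and with (blue) the GC slope as a covariate; points are genes, lines medians. The nuclear members of complex IV move from a median of 0.47 to -0.10, the mitochondrial members of complex I stay near -0.20, and the lowest blue point is MT-ND3 at -1.02.

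How many members were called with the covariate depended on which libraries were included. No member was called without DMSO 1, without DMSO 4, without the 80 µM or without the 100 µM library. Without the 60 µM library, 27 of the 95 members were called (28.4%), and so were 23.3% of all genes. Of the 27, 22 were lower (23.2% of the members, against 13.7% of all genes), led by MT-ND3, SDHB at -0.49 ± 0.08 (edgeR adjusted p 0.00257), NDUFB9 and SDHA at -0.40 ± 0.06 (edgeR adjusted p 0.00322). The 5 that were higher were ATP5E, NDUFA2, NDUFA1, COX6A1 and UQCRHL. With the 80 and 100 µM libraries alone, a choice made after seeing the data, 19 members were called, or 20%. Of these, 16 were lower (16.8%) and 3 higher. So were 20.7% of all genes called (1311 lower, or 11%, and 1152 higher).

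With the covariate, the comparison of arms called 1 gene each in a pair of the other lists that serve the chain. These were 3.23% of the transcription list and 7.69% of the chaperones and proteases, against 3.26% of all tested genes. Of 53 assembly factors, none was called, and the median was -0.11, with 43 negative. Of 31 genes of mitochondrial transcription and RNA handling, 1 was called: PNPT1, a mitochondrial exoribonuclease, fell by 0.81 ± 0.15 (edgeR adjusted p 0.0299), and the list's median was -0.23. TRAP1, a mitochondrial chaperone of the HSP90 family, fell by 0.81 ± 0.17 (edgeR adjusted p 0.0444) and was the single call among 13 chaperones and proteases (median -0.22). Each of these calls held in 8 of 14 alternatives, with adjusted p from 0.00146 to 0.212 for PNPT1 and from 4.52e-04 to 0.248 for TRAP1. Both were lost without DMSO 1, DMSO 2, DMSO 4, the 80 µM or the 100 µM library, TRAP1 also without DMSO 3 and PNPT1 also with the replicate block. None of 19 carriers and electron transport partners was called (median -0.25). NRF1, named above for its promoter letters, stood at 27.1, 18.9, 19.5 and 24.9 CPM in DMSO and 28.4, 16.7, 20.2 and 20.3 with lenvatinib, and these arms overlapped. GABPA stood at 1.81, 6.18, 14.2 and 3.63 CPM in DMSO and 1.75, 0, 7.34 and 6.05 with lenvatinib, and these overlapped too. At 60 µM against DMSO, without the covariate, 20 of the 31 transcription genes were called (18 lower, 2 higher), or 64.5%. So were 17 of the 53 assembly factors, 7 of the 19 carriers and 4 of the 13 chaperones and proteases (32.1, 36.8 and 30.8%), beside the 37.2% of all genes given above. Of the 31 transcription genes, 11 had 0 reads at 60 µM and none had 0 in any other library. All calls at 60 µM were lost without DMSO 2 or without DMSO 4. The part of GC content and of the low library total in these shares was not tested.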

How the data were processed

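The RNA sequencing of 8 libraries (4 DMSO, 4 lenvatinib) was analysed from the deposited gene table. Per the file headers it gives read counts, TPM and FPKM for 20263 genes. Per the submitters' processing notes, the build was GRCh38 and the tools included HISAT2, StringTie, bedtools and FastQC. Versions, annotation and library kit were not given in the sources used here. In the deposited table the counts are whole numbers. The authors' TPM served for levels per length and as an alternative for the sums per complex, and the authors' FPKM was not used. The members and gene lists were chosen with earlier results of these data known.

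Genes averaging 1 CPM or more were tested in R 4.3.3 with the robust quasi-likelihood test of edgeR 4.0.16 on TMM-scaled libraries. Adjustment was by Benjamini-Hochberg over 11827 genes, with a call under 0.05. CPM in the text is TMM-scaled. The fits were lenvatinib against DMSO (6 residual degrees of freedom), the same with the libraries' GC slopes as covariate (5), a dose slope per 20 µM centred at 70 µM (5), and each dose against DMSO (3). GC content is that of the longest GENCODE v29 transcript, matched by Ensembl identifier, and the slope is per 10 percentage points. Counts per kilobase of the principal transcript, scaled as TPM, were summed per complex. Shares and sums had no test. Library totals ran from 10181973 to 37384578, so 3 counts, the limit a count of 0 allows, equal 0.0627 to 0.483 CPM on the TMM scale. Limits cover counting error only. The comparison of arms, without and with the covariate, was tested on simulated data, and the dose fits were not.

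Genes named with values were the mitochondrial and SDH members, in each complex the nuclear members with the highest and lowest fold changes, members called in any test, and the isoform groups; others named were chosen after their values were seen. The numbers in the sample titles were not taken to pair the libraries. The correlations of deviations of same-numbered libraries were 0.63, -0.46, 0.84 and -0.61. The libraries differ mainly along GC content, and those with lenvatinib also in dose, so these correlations cannot decide whether the libraries were paired. Alternatives were DESeq2 1.42.0, other scalings and filters, a block on those numbers, and leaving out each library.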

Additional observations from a re-analysis of the deposited data

Results flagged for a closer look

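In 146 groups of 4 libraries examined, the CPM of 1 library stood far from the other 3 of its arm in 4 cases, and chance alone flags about 1 in 20 groups. NDUFA4L2, a paralog of the complex IV subunit NDUFA4, stood at 10.62 CPM at 60 µM, above the other lenvatinib libraries. ATP5F1 stood at 61.33 CPM at 60 µM, below them. UQCRHL, the retrocopy of UQCRH, stood at 9.195 CPM at 40 µM, and ATPIF1, the inhibitor protein of ATP synthase, at 226.6 CPM at 40 µM.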

How the results depend on the processing

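Genes called in the comparison of arms were 0 under each edgeR setting and 94 with DESeq2. With the GC covariate, the 386 genes and 1 member became 997 and 4 with DESeq2 size factors and 633 and 2 with library totals. They became 2463 and 19 with only the 80 and 100 µM libraries (added after seeing the data). In this order, 8.43, 5.35 and 20.7% of all genes were called, and 4.21, 2.11 and 20% of the members. The numbers were not taken to pair the samples, and the replicate block with the GC covariate called 232 genes. Leaving out each library gave 0 to 2770 genes and 0 to 27 members: 26, 66, 215 and 18 genes without DMSO 1 to 4, and 1006, 2770, 0 and 9 without 40, 60, 80 and 100 µM. Its medians ran from -0.216 to -0.095 (nuclear) and from -0.227 to -0.088 (mitochondrial).

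Without the covariate and with each library left out in turn, the nuclear median ran from 0.012 to 0.394 and the mitochondrial median from -0.085 to 0.183. The nuclear median was 0.008 with library totals (-0.196 over all tested genes) and -0.359 with only 80 and 100 µM. The difference in mitochondrial share ran from -0.287 to -0.043 percentage points. The dose slope, and 40, 80 and 100 µM against DMSO, gave 0 genes and members whichever library was left out. At 60 µM, these counts ran from 0 to 6708 genes and 0 to 30 members, and library totals gave 3196 genes and 16 members. Each dose with the covariate, also added after seeing the data, called 211 genes and 3 members at 40 µM, 4105 genes and 53 members at 60 µM, 1345 and 10 at 80 µM, and 732 and 3 at 100 µM.

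At 60 µM that covariate reversed MT-ND3 (-1.75), NDUFA5 (4.43), NDUFB11 (-0.50), CYC1 (-1.27), MT-CO2 (-1.57), COX4I1 (-1.78), COX5B (-0.25), COX6B1 (-0.88), COX8A (-0.70), ATP5B (-1.12), ATP5D (-1.18), ATP5G1 (-1.27), ATP5G2 (-1.19), ATP5G3 (-1.37) and ATPIF1 (-0.81; -0.70 with library totals). In the fits of each dose with the covariate, the DMSO libraries alone set its effect. The GC slopes at 40 and 60 µM (0.67 and 1.82) lie outside those of DMSO (-0.99 to 0.28), so these values are extrapolated. The cause was not tested. One library per dose, and the low total at 60 µM, limit all dose values.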

Other observations

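The proteins of the mitochondrial ribosome, which translates the 13 mitochondrial messages, were a further list. With the GC covariate, 75 of its 78 tested genes had a negative log2 fold change, with a median of -0.36 against -0.06 over all tested genes. None was called, and 25 had an unadjusted p under 0.05 (32.1%, against 20.3% of all tested genes). In CPM 7 were below DMSO in every lenvatinib library and none above (8.97% below, against 3.38% of all tested genes). Without the covariate 45 were negative, with a median of -0.18 against -0.11. Without the covariate, 31, 38, 75 and 73 of the 78 were negative in the order of the doses, from 40 to 100 µM, with medians of 0.20, 0.08, -0.46 and -0.38. Over all tested genes the negative shares were 52.8, 59.7, 54.1 and 54.0%. None of the 78 was called at 40, 80 or 100 µM. At 60 µM, 23 fell and 3 rose (MRPL10, MRPL27 and MRPL41), or 33.3% against 37.2% of all genes, and no gene at all was called without DMSO 2 or without DMSO 4.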
